A study of Mus musculus with 71 samples.

Results

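The 3267 intervals described here are stretches of chromatin in mouse neural progenitors whose WT level changed little between days 5 and 7 of differentiation in culture, stood higher on day 9, and did not go back by day 11. They are 3267 of the 155738 intervals in the authors' table, each called a member below. Members were chosen from the WT libraries alone. The log2 of the normalised read count plus 5 was averaged within each group and then over 3 progenitor populations. A member had a WT change under 0.5 in size between days 5 and 7, a WT rise of at least 0.8 between day 7 and the NFIAn fraction of day 9, and a WT change above -0.5 from there to day 11. Its day 11 levels in the 3 populations also had to lie within a range under 1.

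The series holds 71 CaTS-ATAC libraries, 38 WT and 33 MUT, in 26 groups. In CaTS-ATAC, fixed cells are stained with antibodies to intracellular markers such as SOX2 and OLIG2, sorted by them and profiled by ATAC-seq. All libraries came from mouse embryonic stem cells that had received bFGF, then the GSK3 inhibitor CHIR99021, then retinoic acid at 100 nM with the Smoothened agonist SAG at 10 nM, and SAG alone at 10 nM from day 5. The sorted populations were p0-p1, p2 and pMN, which are named after ventral domains of the developing spinal cord. Titles carry NFIAn or NFIAp, read here as cells without or with the protein NFIA. WT libraries were NFIAn on days 5 and 7 in all populations. On day 9 they were NFIAn in all 3 and also NFIAp in p2 and pMN, and on day 11 they were NFIAp. Every MUT group was NFIAn. Which gene the MUT cells lack or carry changed is not in the labels, nor is the parent line or the number of clones. The labels do not tie replicates to separate cultures either. The p-values below therefore rest on library-to-library spread alone, and that spread may be technical.

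The transposase used in ATAC-seq inserts most readily where nucleosomes have been displaced, so a high read count marks chromatin that is open to regulatory proteins, usually at promoters and enhancers. Neural progenitors of the spinal cord make neurons first and glia later, and NFIA is a transcription factor known for its role in the start of gliogenesis. Intervals carry a number in the table, without a position, length or gene name. Members are therefore named by number, the sorted cells could not be checked against marker genes, and levels are not compared between intervals per length. Where members are picked by level, the level is reads per interval, which also depends on the interval's length.

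Each library held between 20034731 and 31315135 reads in the intervals, with a median of 24375871, as recovered from the table. Both libraries labelled D7 pMN replicate 3 went against their genotype label. In a run of 5 neighbouring interval numbers the other WT libraries had 148 to 519 reads and the other MUT libraries 0 to 1, while the library labelled WT had 0 and the one labelled MUT had 213. Both were left out, which leaves 2 libraries in each of those groups and 69 in all. Replicate 2 of WT D9 p2 NFIAp also differed widely from its replicates (chi-square per interval of 9.16 and 7.24, against a lowest value of 1.53 over 64 replicate pairs). The main counts and medians that use it are given with and without it. Replicates 1 and 3 of that group differed by 6.66, and pairs in other groups by up to 8.73 (WT D11 p0-p1, replicates 1 and 3). At the members, replicate 1 of WT D9 p2 NFIAp had the highest median of its group. It had 77.0 normalised reads, against 38.4 and 47.8 in replicates 2 and 3. Medians and correlations are not given without replicate 1. A higher value in a sorted population can come from more cells that are open at an interval or from more openness per cell, and these cannot be told apart here.

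The rule sets no ceiling on the starting level, and WT day 7 levels of members went up to 9.19 (log2). In the WT libraries that chose them, members had a median level of 4.41 on day 5, 4.43 on day 7, 5.59 in day 9 NFIAn and 6.96 on day 11 on the log2(value + 5) scale. These levels correspond to 16.2, 16.6, 43.2 and 119 normalised reads. The MUT libraries, which had no part in the choice, had median levels of 4.40, 4.49, 5.44 and 6.47, or 16.1, 17.5, 38.5 and 83.8 normalised reads. In MUT the step therefore fell between the same days as in WT.

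The same course was present in the single libraries. The median over members was 14.7 to 18.3 normalised reads in the 9 MUT libraries of day 5 (median library 16.1) and 15.5 to 19.2 in the 8 of day 7 (median 18.0). It was 34.4 to 45.6 in the 6 of day 9 (median 37.2) and 69.0 to 102.6 in the 9 of day 11 (median 83.9). The day 5 and day 7 ranges overlapped, and the ranges of days 7, 9 and 11 did not. In WT the ranges were 14.7 to 18.5 on day 5 (n = 6), 15.9 to 19.5 on day 7 (n = 8), 37.9 to 51.2 in day 9 NFIAn (n = 8), 38.4 to 77.0 in day 9 NFIAp (n = 6) and 98.0 to 134 on day 11 (n = 9). On day 9 the WT NFIAn and MUT ranges overlapped. On day 11 they shared only a narrow stretch, with the lowest WT library below the highest MUT library. Members took 0.492% of all reads in the median MUT library of day 7, 1.06% on day 9 and 2.10% on day 11. In WT the median shares were 0.450%, 1.06% in NFIAn, 1.52% in NFIAp and 2.88% on day 11.

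**Figure D1:**
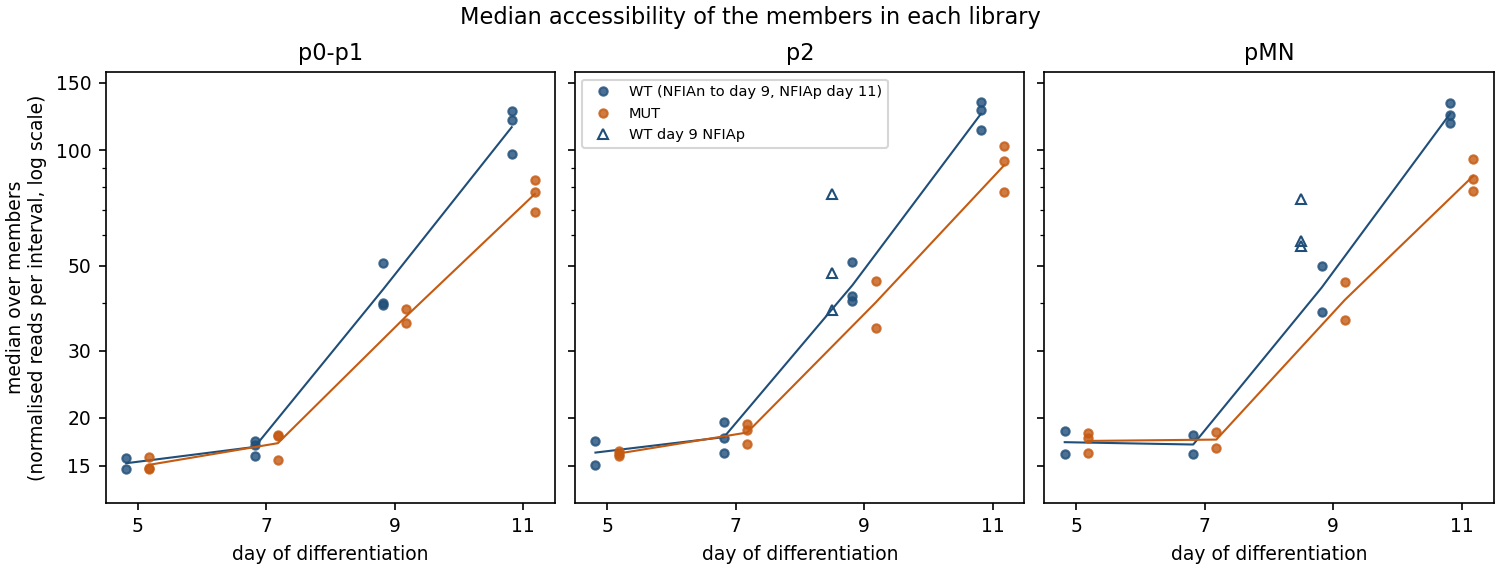
Median over the 3267 members in each library, in normalised reads on a log axis, by day of differentiation for p0-p1, p2 and pMN. Filled points are libraries, lines join the mean of each group, and open triangles (drawn to the left of day 9) are WT day 9 NFIAp libraries. No library of days 5 and 7 lies above 19.5, and all MUT libraries of day 9 lie between 34.4 and 45.6.

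Members rose in MUT between days 7 and 9. Over the mean of the populations the median change was 0.87 on the log2 scale, against 0.03 for all intervals. Above 0 were 3197 of 3267 members, against 52.3% of all intervals. Of the members, 1868 (57.2%) were called higher, at a Benjamini-Hochberg adjusted p under 0.05 in limma and a change of at least 0.8, against 6.97% of all intervals tested. None was called lower, against 7.27% of all intervals. The fit treats same-numbered libraries of the 3 populations as independent. On day 9 in MUT their deviations from the group means correlated at 0.22 to 0.34, so these p-values may be too small. At an unadjusted p under 0.05 in limma, 5 members were lower, against 25.8% of all intervals. edgeR on the recovered reads called 2262 higher and 0 lower, with 2 lower at an unadjusted p under 0.05. Member counts from edgeR and from fits without a library are given, here and below, without the share over all intervals. Without any 1 library the limma count lay between 1667 and 2025, and with the 2 D7 pMN replicate 3 libraries included it was 1875. The balance of calls over all intervals depends on the scaling. With equal library totals 8.89% of all intervals rose and 6.01% fell, and 2151 members rose. That scaling moved the median of all intervals to 0.11 and that of members to 0.95.

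A change of at least 0.5 was present in 2724 members (83.4%), against 16.3% of all intervals. In 1263 members (38.7%) every one of the 6 MUT libraries of day 9 was above every one of the 8 of day 7, which held for 4.64% of all intervals. Within single populations, the day 9 libraries were all above the day 7 libraries for 2554 members of p0-p1 (78.2%, against 25.5% of all intervals), 2540 of p2 (77.7%, against 24.8%) and 2832 of pMN (86.7%, against 28.5%). This held in each of the 3 populations for 2016 members (61.7%, against 10.7%).

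**Figure D2:**
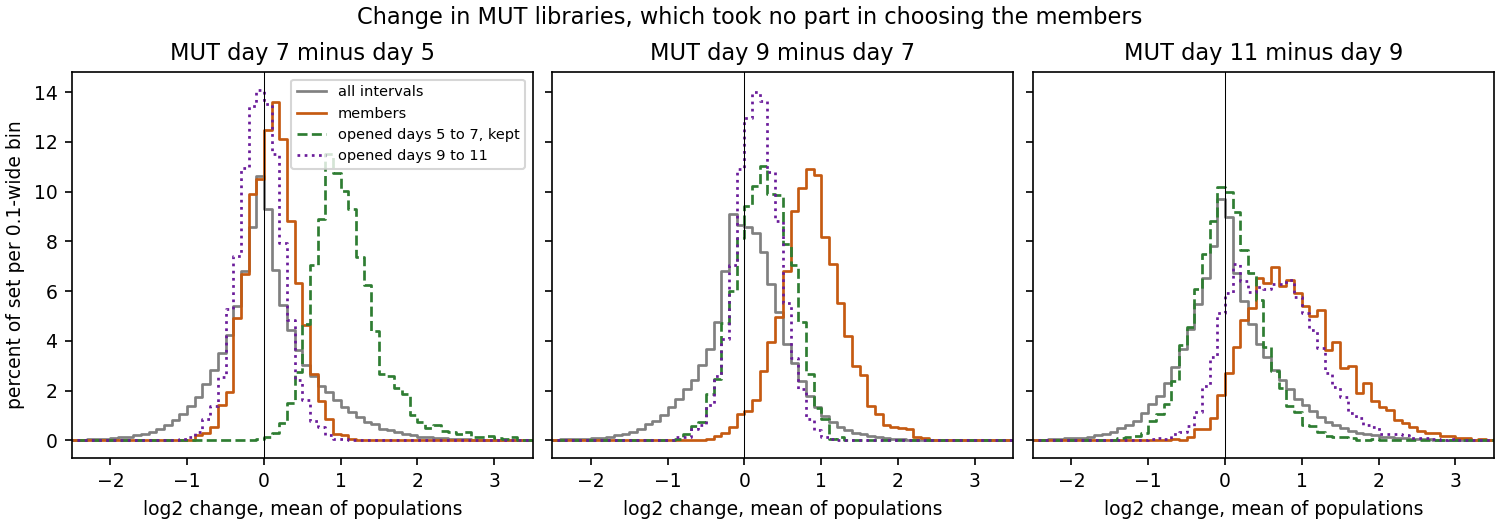
Distribution of the change between successive days in MUT libraries (log2, mean of the populations), as percent of each set per bin of 0.1, for members, all intervals, intervals opened between days 5 and 7 and kept, and intervals opened between days 9 and 11. Members lie near 0 from day 5 to 7, with a median of 0.11, and to the right of 0 from day 7 to 9 and from day 9 to 11, with medians of 0.87 and 0.86.

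The earlier step was close to flat in MUT too. From day 5 to day 7 the median change of members was 0.11, and 45 members (1.38%) rose and 7 (0.214%) fell, against 10.8% and 7.47% of all intervals. Quantile normalization gave 30 and 11, and equal library totals 40 and 8. Other sets came from the rule moved to other days, with a WT change under 0.5 in size asked between days 7 and 9. Members had no such upper limit on their WT change after the rise. The counts of these sets are given as a description. Of the 3399 intervals opened in WT between days 5 and 7 and kept, 2512 (73.9%) rose in MUT between days 5 and 7 and 172 (5.06%) between days 7 and 9. Of the 8267 opened in WT between days 9 and 11, 27 (0.327%) rose in MUT between days 5 and 7, 121 (1.46%) between days 7 and 9, and 3029 (36.6%) between days 9 and 11.

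Each population of MUT cells had the rise from day 7 to day 9. For p0-p1 the median change of members was 0.84, for p2 0.86 and for pMN 0.88. p0-p1 had 1663 members that rose (50.9%), p2 had 1714 (52.5%) and pMN 1575 (48.2%), against 9.61%, 8.55% and 5.57% of all intervals (limma, adjusted p under 0.05). In p0-p1 and p2, limma called 0 members lower, against 8.25% and 8.16% of all intervals. At an unadjusted p under 0.05 in limma, 3 and 4 were lower, against 18.6% and 15.95% of all intervals. edgeR called 1439 members higher for p0-p1, 1561 for p2 and 1394 for pMN, with 0, 0 and 1 lower. With the library labelled D7 pMN replicate 3 included, the pMN count was 1743. These counts depend on single libraries. Without replicate 1 of day 9 in the population concerned, p0-p1 gave 979, p2 941 and pMN 635, and without replicate 1 of day 7 the pMN count was 844. In 897 members (27.5%) the rise was called in all 3 populations, against 2.62% of all intervals. It was called in 2 populations for 758 members (23.2%, against 3.86%), in 1 for 745 (22.8%, against 8.14%) and in 0 for 867 (26.5%, against 85.4%).

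The size of the MUT rise differed among populations for 1 member, Interval_59503, by limma's F-test, against 0.0937% of all intervals. At an unadjusted p under 0.05 the test gave 238 members (7.28%), against 8% of all intervals, and edgeR called 0. Interval_59503 had 2.22, 6.37 and 5.99 normalised reads in MUT p0-p1 on day 7, and 16.3 and 14.5 on day 9. In MUT p2 it had 5.72, 7.23 and 2.14 on day 7, and 72.2 and 83.7 on day 9. In MUT pMN it had 2.23 and 4.18 on day 7, and 11.8 and 14.0 on day 9. Both p2 libraries of day 9 were above all other MUT libraries of day 9. The fitted changes spanned 2.00 on the log2 scale between populations (adjusted p = 0.0496). The call was lost with a pseudocount of 1, with quantile normalization, with equal library totals and in edgeR. It held without WT D9 p2 NFIAp replicate 2, MUT D7 p0-p1 replicate 1 or MUT D9 pMN replicate 2, and was lost without each of the other 12 libraries left out. A single member, Interval_52401, fell in MUT pMN, against 6.66% of all intervals called lower there. It had 52.4 and 66.0 normalised reads on day 7 and 26.6 and 32.5 on day 9, a change of -0.89 ± 0.25 (SE, limma adjusted p = 0.00772). No member was called lower there once replicate 1 of MUT D9 pMN or replicate 2 of MUT D7 pMN was left out.

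Members were also compared with one another in the size of the WT and MUT changes. Across the 3267 members, the WT change from day 7 to day 9 NFIAn and the MUT change had a Pearson correlation of 0.46, as a description over intervals that share libraries, and 0.89 over all intervals. The rule leaves no WT change under 0.8, so the range over members is narrow. The WT change had a median of 1.00, with quartiles of 0.88 and 1.22, and was at most 3.66. These are the values that chose the members. At the threshold, Interval_148189 and Interval_110129 were just inside, each with a WT change of 0.80, and their MUT changes were 1.09 and 0.54. Interval_15217 and Interval_69963 were just outside, also at 0.80 to 2 decimals, with MUT changes of 0.03 and 0.57.

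**Figure D3:**
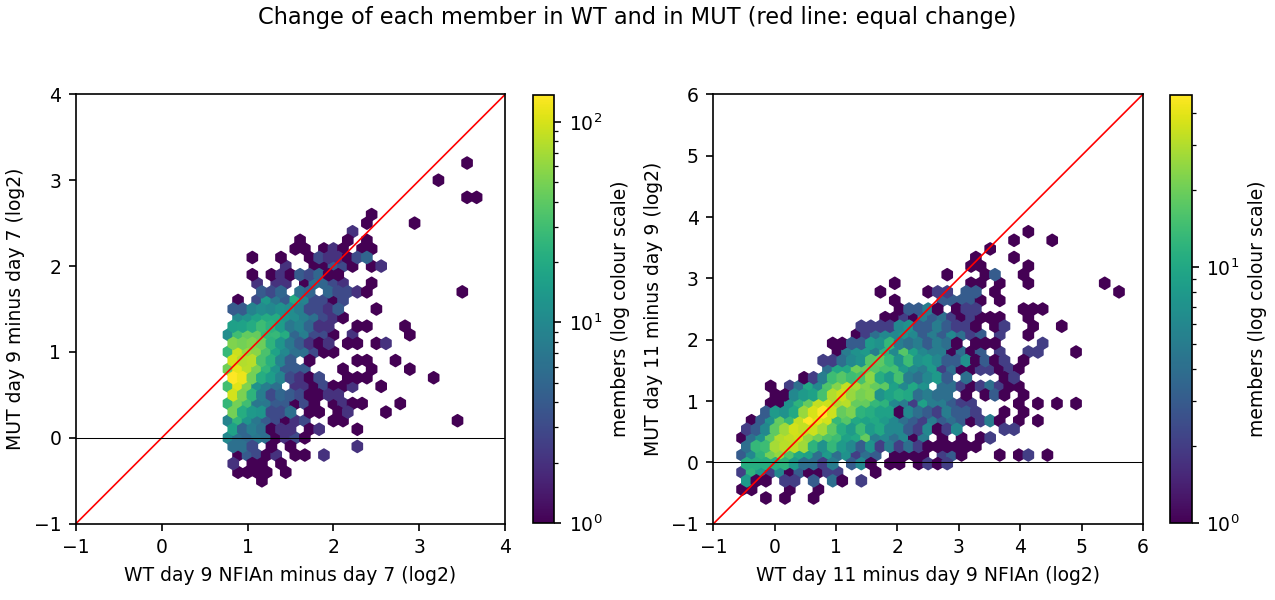
Change of each member in WT (x axis) and MUT (y axis) on the log2 scale, from day 7 to day 9 (left) and from day 9 to day 11 (right). Colour gives the number of members per hexagon on a log scale, and the red line marks equal change. The left panel has no points below 0.8 on the x axis by the rule, and most members there lie above 0 on the y axis (3197 of 3267).

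The 6 members with the largest WT rise were Interval_106350, Interval_93178, Interval_127575, Interval_29179, Interval_103717 and Interval_129205. Of these, 4 also had the 4 largest MUT rises among members at or above the median WT day 9 level of the set. Interval_93178 had 74.3 to 119 normalised reads in the 8 MUT libraries of day 7 (median 91.4) and 537 to 1346 in the 6 of day 9 (median 940.8). All day 9 libraries were above all day 7 libraries. Replicates 1 of day 9 had 1143, 1286 and 1346 in p0-p1, p2 and pMN, and replicates 2 had 537, 677 and 738, so replicate 1 was the higher library in each population. The MUT change was 3.22 ± 0.13 (SE, limma adjusted p = 2.34e-29). As above, the fit treats same-numbered libraries as independent. SEs and p-values for the mean of the populations, here and below, may be too small. WT libraries had 86.9 to 166 on day 7 (median 95.6) and 985 to 1713 in day 9 NFIAn (median 1156). By day 11 MUT had 1940 to 2710 and WT 1986 to 2963, and the 2 ranges overlapped over most of their length.

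Interval_129205, Interval_29179 and Interval_106350 had MUT changes of 3.03 ± 0.16, 2.80 ± 0.21 and 2.76 ± 0.16 (SE), with adjusted p-values from limma of 2.87e-23, 2.17e-17 and 1.01e-21. Interval_29179 had 20.1 to 39.3 normalised reads in MUT on day 7, 154.9 to 418 on day 9 and 594.8 to 1588 on day 11. Its WT libraries had 21.8 to 43.1, 285 to 663 in NFIAn and 1005 to 2232. Interval_106350 had 22.3 to 47.9 in MUT on day 7, 185.7 to 418 on day 9 and 364 to 1233 on day 11. Its WT libraries of day 11, with 1345 to 2334, were all above the MUT libraries of that day.

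In the other 2 of the 6, the MUT and WT NFIAn libraries of day 9 did not overlap. Interval_103717 had 7.81 to 12.8 normalised reads in MUT on day 7 (median 8.68), 7.44 to 12.4 on day 9 (median 11.2) and 36.7 to 68.5 on day 11 (median 57.3). Its MUT libraries of days 7 and 9 overlapped, with a change of 0.15 ± 0.17 (SE, limma adjusted p = 0.473). WT libraries had 4.42 to 15.9 on day 7, 71.5 to 330.2 in day 9 NFIAn and 433 to 589 on day 11, with no overlap between days. Interval_127575 rose in MUT by 1.72 ± 0.20 (SE, limma adjusted p = 9.15e-11), from 4.43 to 14.5 normalised reads on day 7 to 20.8 to 76.9 on day 9. In WT it went from 7.19 to 24.1 on day 7 to 126 to 531 in day 9 NFIAn. Its MUT rise was above the 95th percentile of the members, 1.60.

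**Figure D4:**
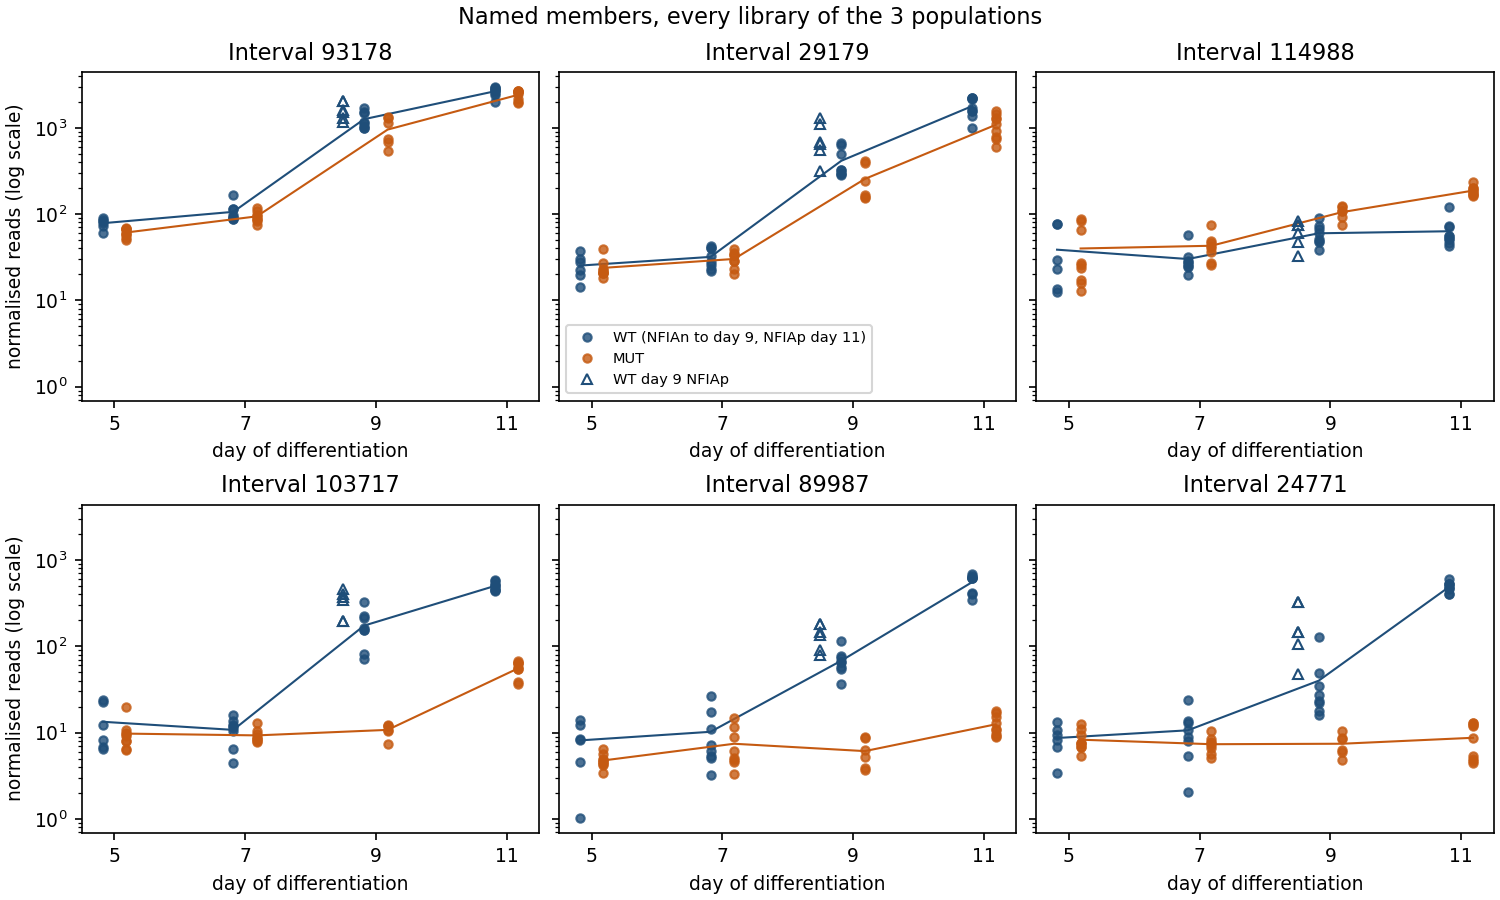
Normalised reads (log axis) of 6 members in every library, by day, with the 3 populations together. Filled points are libraries, lines join the means of each genotype and day, and open triangles are WT day 9 NFIAp libraries. Interval_93178 and Interval_29179 rose in both genotypes, Interval_114988 stood higher in MUT on day 11, and Interval_103717, Interval_89987 and Interval_24771 stood lower in MUT on days 9 and 11.

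Among members at or above the median day 9 level of the set, the 4 with the smallest MUT change from day 7 were Interval_13494, Interval_52401, Interval_3654 and Interval_139982, at -0.53, -0.44, -0.43 and -0.39. None of them reached the change of 0.8 that a call needs. The limma adjusted p was 0.00834 for Interval_13494 and 0.00551 for Interval_52401, and 0.109 and 0.117 for the others. Interval_13494 had 22.2 to 111 normalised reads in MUT on day 7 and 23.1 to 50.0 on day 9, against 28.7 to 117 and 70.1 to 256 in WT. In both genotypes these ranges overlapped between the days.

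From day 9 to day 11 the members parted. By the WT change over these days, 767 (23.5%) held their level with a change under 0.5, 419 (12.8%) lay between 0.5 and 0.8, and 2081 (63.7%) rose on by 0.8 or more. This split uses the WT libraries of the rule and is a description. WT libraries were NFIAn on day 9 and NFIAp on day 11, so in this WT change day and NFIA fraction cannot be told apart. From NFIAp on day 9 to NFIAp on day 11, the change was at least 0.8 in 1950 members (59.7%) in p2 and 1579 (48.3%) in pMN, against 17.3% and 16.4% of all intervals. The median of this change was 0.98 in p2 and 0.77 in pMN, and without WT D9 p2 NFIAp replicate 2 the p2 median was 0.83. These values share the WT day 11 libraries with the rule and are a description. In MUT, 1748 members (53.5%) rose between days 9 and 11 and 0 fell, against 10.9% and 7.68% of all intervals (limma, adjusted p under 0.05). At an unadjusted p under 0.05 in limma 22 members were lower, against 27.1% of all intervals, and edgeR called 1916 higher and 1 lower. The median MUT change was 0.86, and 3141 of 3267 members were above 0, against 49.4% of all intervals. All 9 MUT libraries of day 11 were above all 6 of day 9 in 1330 members (40.7%), against 6.49% of all intervals.

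The MUT calls were counted in each of these WT groups. Between days 9 and 11 the MUT rise was called in 73 of the members that held in WT (9.52%). It was called in 148 of those between (35.3%) and 1527 of those that rose on (73.4%). Over all intervals the share was 10.9%, so held members were near the background. Between days 7 and 9 the counts were 412 (53.7%), 246 (58.7%) and 1210 (58.1%), against 6.97% of all intervals. The median MUT change from day 7 to day 9 was 0.83 in held members, 0.87 in those between and 0.88 in those that rose on. Both MUT steps were called in 1126 members (34.5%, against 2.43% of all intervals) and the first alone in 742 (22.7%, against 4.54%). The second alone was called in 622 (19%, against 8.51%) and neither in 777 (23.8%, against 84.5%). Across members the WT and MUT changes from day 9 to day 11 had a Pearson correlation of 0.64, and 0.76 over all intervals.

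Differences between populations on day 9 were called in a minority of members. In MUT, limma's F-test across p0-p1, p2 and pMN, with a range of at least 1, called 307 members (9.4%), against 11.5% of all intervals. A share below the background is no result about the members. Among those called, p2 was highest in 146, pMN in 119 and p0-p1 in 42 (13.7%). Over all called intervals p0-p1 was highest in 42.3%, p2 in 32.7% and pMN in 25.04%. In WT day 9 NFIAn, 394 members (12.1%, against 12.3% of all intervals) were called, with p2 highest in 175 (44.4%), pMN in 144 (36.5%) and p0-p1 in 75 (19.04%). Over all intervals called there the shares were 35.3%, 16.8% and 47.9%. These WT libraries took part in the rule, so counts that use them are a description. Of the 307 members called in MUT, 288 (93.8%) had the same population highest in WT day 9 NFIAn, near the 92.9% of all intervals called. Both genotypes called 174 members, with the same population highest in 169 (97.1%, against 96% of all such intervals).

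The largest ranges among MUT populations on day 9 within that set were those of Interval_51509, Interval_83314 and Interval_59503. For Interval_59503 the WT day 9 NFIAn libraries had 18.8, 30.8 and 38.5 normalised reads for p0-p1. The p2 libraries had 89.4, 107 and 126, and the pMN libraries 12.7 and 19.9. Every p2 library was above every library of the other populations. That p2 had the highest level in WT as in MUT follows from how these members were picked. On day 11, 395 members (12.1%, against 15.2% of all intervals) differed among MUT populations, with pMN highest in 184 (46.6%), p2 in 112 (28.4%) and p0-p1 in 99 (25.1%). Over all intervals called on that day the shares were 29.98%, 18.6% and 51.4%. Of the 112 members called on both days, 97 had the same population highest (86.6%, near the 86.3% of all such intervals). The rule asks for a small range among WT populations on day 11, so no WT count of day 11 is given.

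The NFIA fractions of WT day 9 bear on the members in 2 ways. First, the NFIAp libraries took no part in the rule. Their median change from the NFIAn cells of day 7 was 1.24 in p2 and 1.44 in pMN, against 0.01 and 0.02 over all intervals. Above 0 were 3225 and 3263 of 3267 members, against 51.0% of all intervals in both populations. Without WT D9 p2 NFIAp replicate 2 the p2 values of the members were 1.41 and 3230. These changes share the day 7 libraries with the rule and are a description. Within the NFIAp fraction, 50 members (1.53%) were higher in pMN than in p2 and 1 was lower, against 0.666% and 0.571% of all intervals (limma, adjusted p under 0.05). Interval_89475 was the lower one, at -0.96 ± 0.26 (SE, adjusted p = 0.0387). Its normalised reads were 132, 51.8 and 154 in p2 and 65.9, 48.6 and 38.8 in pMN. The p2 libraries thus spanned both groups, with replicate 2 the low one.

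These counts rest on single libraries. Without WT D9 p2 NFIAp replicate 2 they were 87 higher and 39 lower, and without replicate 1 of that group 299 were higher. Without replicate 3 of that group 3 members were higher, without WT D9 pMN NFIAp replicate 1 17, and without its replicate 2 30. In these groups same-numbered libraries deviated together. With the replicate number as a block the count was 66 as a fixed term, 108 as a random effect and 0 in a fit of only these 2 groups, chosen after the data were seen.

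Second, the NFIAp and NFIAn cells of day 9 were set side by side, in a comparison that shares the NFIAn libraries with the rule and is given as a description. In p2 the members' median difference, NFIAp minus NFIAn, was 0.27. There 239 members (7.32%) were higher in NFIAp and 131 (4.01%) lower, against 2.25% and 4.27% of all intervals. Without WT D9 p2 NFIAp replicate 2 the median was 0.42 and the counts 685 higher and 112 lower. Without its replicate 1 the higher count was 31, and with a fit of only these groups it was 3. It was 402 without WT D9 p2 NFIAn replicate 1, 85 without replicate 2 and 76 without replicate 3 of that group. In pMN the median difference was 0.37, and 2833 members were above 0, against 53.0% of all intervals. There 2 members were called higher and 0 lower, against 0.00835% and 0% of all intervals. At an unadjusted p under 0.05 in limma, 6 were lower and 930 higher, against 3.28% and 6.78% of all intervals. edgeR called 23 higher and 0 lower.

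The 2 members called in pMN were Interval_113917 and Interval_147416. Interval_113917 had 31.8 and 19.9 normalised reads in pMN NFIAn and 214, 68.7 and 93.8 in NFIAp, a difference of 1.95 ± 0.35 (SE, limma adjusted p = 0.0167). Interval_147416 had 10.6 and 8.97 in NFIAn and 40.7, 35.9 and 47.9 in NFIAp, a difference of 1.65 ± 0.30 (SE, limma adjusted p = 0.0169). The fractions did not overlap in either. No member was called once WT D9 pMN NFIAp replicate 1 or WT D9 pMN NFIAn replicate 2 was left out, and 57 were called without WT D9 p2 NFIAp replicate 2. The counts were 27 without WT D9 pMN NFIAn replicate 1, and 6 and 11 without replicates 2 and 3 of pMN NFIAp.

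Members that rose on in WT and members that held differed in this comparison by their medians. The median NFIAp minus NFIAn difference was 0.42 in p2 and 0.52 in pMN for members that rose on, and -0.05 and 0.09 for members that held. Without WT D9 p2 NFIAp replicate 2 the p2 medians were 0.64 and -0.05. Both the split and the difference use the WT NFIAn libraries of day 9. The MUT change from day 9 to day 11, which shares no library with the fractions, had a Pearson correlation of 0.50 with the fraction difference averaged over p2 and pMN, across 3267 members, and 0.53 over all intervals. The fraction differences of p2 and pMN correlated at 0.46 across members and 0.26 over all intervals. Without WT D9 p2 NFIAp replicate 2 the first correlation was 0.54 and 0.58, and the second 0.59 and 0.37. Largest in the mean over both populations were Interval_111534 at 2.09, Interval_138679 at 1.70 and Interval_85061 at 1.69. The lowest were Interval_125189 at -1.04 and Interval_59503 at -1.002. Without that replicate the 5 values were 2.71, 2.10, 1.99, -0.91 and -0.84, and the last 2 were then the third and the fifth lowest. Interval_59503 had 24.4, 16.6 and 54.3 normalised reads in p2 NFIAp, all below its 3 p2 NFIAn libraries.

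Between the genotypes, members were on average lower in MUT, a comparison that shares WT libraries with the rule and is given as a description. On day 9, MUT minus WT NFIAn had a median of -0.13 over members and 0.07 over all intervals. There 316 members (9.67%) were called lower in MUT and 12 (0.367%) higher, against 0.577% and 1.55% of all intervals. On days 5 and 7 the member medians were 0.00 and 0.04. On day 11 the median was -0.23, and 841 members (25.7%) were lower and 49 (1.5%) higher, against 8.91% and 3.49% of all intervals. WT libraries of day 11 are NFIAp and MUT libraries NFIAn, so genotype and NFIA fraction cannot be told apart on that day. Some members (258, 191 and 14) lay in 3 ranges of interval numbers that shift between the genotypes. Their medians were -0.35, -0.37 and 0.17 on day 9, and -0.37, -0.50 and 0.11 on day 11. For the 2804 members outside these ranges the medians were -0.10 and -0.19. Without the ranges 252 members were lower and 12 higher on day 9, and 695 and 47 on day 11. The cause of these shifts was not tested.

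Scaling moved the balance of these calls over all intervals. With equal library totals, 10575 intervals were higher and 11890 lower in MUT on day 11, against 5433 and 13870 with the deposited scaling. Of the members, 749 were then lower and 110 higher. Quantile normalization gave 779 and 76. On day 9 quantile normalization gave 1309 intervals higher and 1525 lower, against 2418 and 898 with the deposited scaling, and 410 members lower and 6 higher. Equal library totals gave 3698 intervals higher and 723 lower on day 9, and 283 members lower and 22 higher. The members' median on day 9 was -0.24 with quantile normalization and -0.07 with equal library totals. That of all intervals was 0.00 and 0.12. The members' median on day 11 was -0.12 with quantile normalization and -0.08 with equal library totals, while the median of all intervals was 0.09 and 0.17.

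The call on day 11 and the split by WT change both contain the WT day 11 libraries, so a high value there moves a member towards both, and the counts that follow are a description. Of the 841 members lower in MUT on day 11, 812 belonged to the 2081 that rose on in WT (39%), 20 to the 419 between and 9 to the 767 that held. Of the 49 that were higher, 37 belonged to those that held. The lower members had median WT levels of 4.09, 4.10, 5.39 and 7.84 on days 5, 7, 9 (NFIAn) and 11, and MUT levels of 4.07, 4.10, 4.78 and 5.80. The 2377 members called in neither direction had WT levels of 4.52, 4.57, 5.66 and 6.70 and MUT levels of 4.54, 4.65, 5.68 and 6.63. The rise in MUT from day 7 to day 9 was called in 267 of the 841 lower members (31.7%), 46 of the 49 higher ones (93.9%) and 1555 of the 2377 (65.4%). Over all intervals in these classes the shares were 6.63%, 15.2% and 6.68%. In the lower members the median NFIAp minus NFIAn difference on day 9 was 0.59 in p2 and 0.66 in pMN, and in the 2377 it was 0.18 and 0.29. Without WT D9 p2 NFIAp replicate 2 the p2 medians were 0.88 and 0.29.

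The 3 members with the lowest MUT minus WT difference on day 11 had at most 17.7 normalised reads in any MUT library of that day. Interval_24771 had 5.01 to 10.3 normalised reads in MUT on day 7, 4.75 to 10.5 on day 9 and 4.48 to 13.1 on day 11 (medians 7.33, 7.36 and 8.56). WT libraries had 2.05 to 23.9 on day 7, 15.8 to 129 in day 9 NFIAn, 47.7 to 325 in day 9 NFIAp and 401 to 599 on day 11. The day 11 ranges of the genotypes did not overlap, with a difference of -5.22. Interval_24771, like Interval_29179, lies in the range of interval numbers with 258 members that shifts between the genotypes. Interval_85061 had 0.856 to 9.81 in MUT and 233 to 535 in WT on day 11, a difference of -5.18. Interval_89987 had 8.96 to 17.7 in MUT and 347 to 683 in WT on day 11, a difference of -4.99, and on day 9 it had 3.72 to 8.88 in MUT and 36.5 to 114 in WT NFIAn.

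The highest differences were those of Interval_114988 at 1.55 and Interval_12766 at 1.35, both among members that held in WT. Interval_114988 had 75.01 to 125 normalised reads in MUT on day 9 and 164 to 234 on day 11, while WT had 38.0 to 91.0 in day 9 NFIAn and 42.8 to 122 on day 11. All MUT libraries of day 11 were above all WT libraries of that day. Interval_12766 had 35.1 to 84.0 in MUT and 12.4 to 32.7 in WT on day 11, again without overlap. Interval_143474, picked with Interval_93178 for its reads on WT day 11, had WT levels of 7.60, 9.65 and 11.3 (log2) on days 7, 9 (NFIAn) and 11, and MUT levels of 7.30, 7.68 and 9.71. Interval_143474 lies in the shifting range of interval numbers with 191 members.

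Replicate 1 of day 9 stood above the other replicates at the members. The median over members of the log2 difference between replicate 1 and the mean of the others was 0.17, 0.31 and 0.27 in MUT p0-p1, p2 and pMN. It was 0.30, 0.30 and 0.36 in WT NFIAn, and 0.73 and 0.36 in WT NFIAp of p2 and pMN. All WT groups except day 9 NFIAp took part in the rule, so their values here and in the shares below are a description. Over all intervals the same medians lay between -0.03 and 0.02. On days 5 and 7 the members' medians lay between -0.13 and 0.03, and on day 11 between 0.12 and 0.23. In the 4 groups of day 9 with 2 libraries, replicate 1 was the higher one in 64.9% to 78.8% of members, against 47.05% to 50.8% of all intervals. In the 4 groups with 3 libraries it was the highest in 68.1% to 80.1%, against 34.4% to 37.8%. The day 9 levels above are means that include these libraries, and the part of replicate 1 in them was not tested beyond the counts without it.

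**Figure D5:**
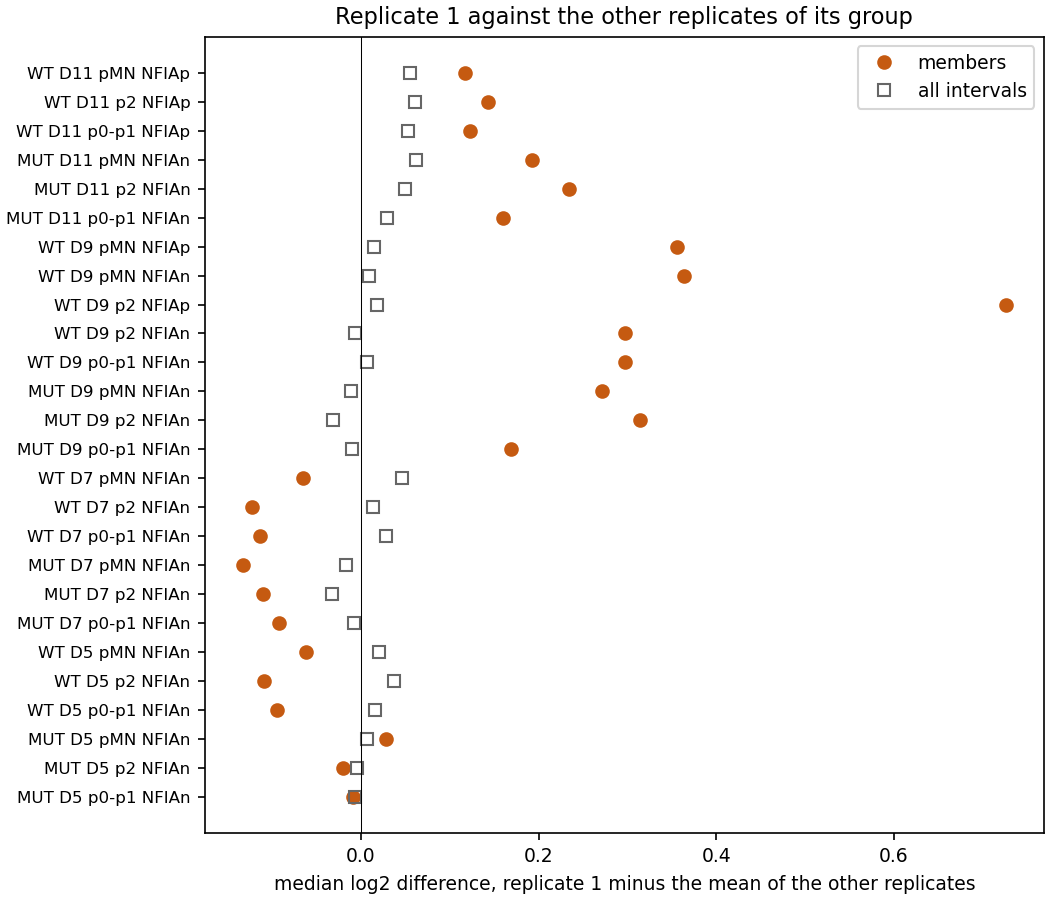
Median log2 difference between replicate 1 and the mean of the other replicates of its group, over the members (filled) and over all intervals (open squares), for the 26 groups ordered by day. On day 9 the members lie between 0.17 and 0.73 in all 8 groups, and all intervals between -0.03 and 0.02. All WT groups except day 9 NFIAp took part in the rule.

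The table's numbering was examined as well. Of the members, 249 (7.62%) had a member next to them in number, against 4.05% of the other intervals. There were 111 runs of 2, 6 runs of 3, 1 run of 4 and 1 run of 5. The table does not say whether neighbouring numbers are neighbours on a chromosome. The run of 5, chosen after its values were seen, goes from Interval_93182 to Interval_93186, close in number to Interval_93178. Its MUT changes from day 7 to day 9 lay between 0.68 and 1.40, and 4 of 5 were called (limma, adjusted p under 0.05). The uncalled one, Interval_93185, had a change of 0.68 ± 0.11 (SE), under the 0.8 needed. The 3 intervals in between are no members. Interval_93179 and Interval_93180 were not called in MUT from day 7 to day 9, with changes of 0.55 ± 0.10 and 0.35 ± 0.13 (SE). Interval_93181 missed the rule with a WT change of 0.51 from day 5 to day 7, and it rose by 1.50 ± 0.16 (SE, limma adjusted p = 3.84e-12) in MUT from day 7 to day 9.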

How the data were processed

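The deposited values are a signal: for each interval, reads scaled by a size factor of the library, all in 1 table. The build was mm10 per the submitters' processing notes, and no aligner, peak caller or counting tool is named in them. Their identity is not given in the sources used here. Dividing each column by its step returned whole reads within 0.01 for 100% of values. For 2 libraries (WT D9 pMN NFIAn replicate 2, MUT D11 p2 replicate 1) the step was too near 1 to test this. Reads are not all independent molecules.

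On the log2(value + 5) scale, limma 3.58.1 (R 4.3.3) was fitted once to all 26 groups, with a mean-variance trend. Fold changes on this scale understate those of low intervals. The filter on low values, 10 or more in 2 or more libraries, left 155734 of 155738 intervals and all 3267 members. p-values were adjusted by Benjamini-Hochberg over all of them. A call required an adjusted p under 0.05 with a size of 0.8 or more, or in F-tests over populations a range of 1 or more. In 64 pairs of replicates the chi-square per interval was 1.53 to 9.16, so none was a duplicate. The script was tested on simulated data.

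Libraries were grouped by their titles and population labels. The 2 libraries labelled D7 pMN replicate 3 were left out. The members, their groups and the libraries left out were chosen with earlier results of these data known. Named intervals are the extremes of the WT rise, of the MUT change, of the MUT population range, of the WT day 11 level, of the MUT minus WT difference and of the NFIA fraction difference, with the neighbours of the 0.8 threshold. For the MUT population range they were picked among called members with the same population highest in WT day 9 NFIAn. Others were named where a count was 5 or fewer, after their values were seen.

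Deviations of same-numbered libraries from their group means correlated above 0.1 in every pair for the MUT populations of day 9 (6 pairs), for pMN against p2 in WT NFIAp (3 pairs) and for the p2 fractions (3 pairs), so the numbers were taken to pair those libraries. Alternatives were other pseudocounts (1 and 20), no filter, other scalings, fold minimums, replicate blocks, leaving out each library in turn, and edgeR 4.0.16 on the recovered reads. Figures were drawn with matplotlib 3.10.9.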

Additional observations from a re-analysis of the deposited data

Results flagged for a closer look

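The rise from day 7 to day 9 in MUT libraries differed among p0-p1, p2 and pMN for Interval_59503, by limma's F-test of the difference itself. The fitted changes spanned 2.00 on the log2 scale (adjusted p = 0.0496), with p2 highest, on 2 libraries a population on day 9. It was 1 of 3267 members and edgeR called 0, so it stands at the edge of the threshold.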

How the results depend on the processing

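Of 208 member counts under other settings, libraries left out aside, 153 stayed within 1.5 times the reported count. Of 697 values of named intervals, 669 kept their side of the threshold, 26 newly passed, 2 no longer passed and 0 reversed. The sign was not compared for values called in neither fit. The cause of the changes below was not tested, except that a fold minimum changes counts by construction. With a fold minimum of 1 (range 1.5) the MUT changes from day 7 to 9 and day 5 to 7 gave 1163 and 9, the populations of MUT day 9, MUT day 11 and WT day 9 NFIAn 66, 39 and 85, pMN over p2 in NFIAp 27, MUT below WT on day 9 203, and the p2 fractions 141. With no fold minimum the 3 MUT steps gave 2849 (days 7 to 9), 674 (5 to 7) and 2640 (9 to 11), the populations of MUT day 11 and WT day 9 NFIAn 942 and 680, pMN over p2 78, and MUT below WT 707 on day 9 and 1419 on day 11. A pseudocount of 20 gave 864 for the MUT rise from day 7 to 9, and 809, 986 and 961 within p0-p1, p2 and pMN. It gave 5 from day 5 to 7, 156, 199 and 175 for the populations, 140 for MUT below WT on day 9, and 144 and 35 for the p2 and pMN fractions. A pseudocount of 1 gave 196 from day 5 to 7, 28 for pMN over p2 and 0 for the pMN fractions. edgeR gave 195 from day 5 to 7, and 455 and 23 for the p2 and pMN fractions.

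The difference of the MUT rise among populations gave 0 with a pseudocount of 1, quantile normalization, equal library totals or edgeR, 3 with a pseudocount of 20, 2 with the D7 pMN replicate 3 libraries, and 4 and 34 with the replicate block as a fixed term and as a random effect. The random block gave 108 for pMN over p2. A fit of only the groups compared gave 0 for pMN over p2, 0 with the block, 3 for the p2 fractions and 0 for the pMN fractions. The pMN fractions share only replicate numbers, not every pair correlating above 0.1. They gave 104 and 375 with the block as a fixed term and a random effect, 667 in a fit of only these groups with the block, and 4 each with equal library totals, with the D7 pMN replicate 3 libraries, and without 3 ranges of interval numbers that shift between the genotypes. The fits of only the groups compared with the block were chosen after seeing the data. In the paired comparisons the block moved no other count by over 1.5 times, with 354, 388 and 398 for the MUT populations of day 9.

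The member count of 3267 became 1739 with a pseudocount of 20, 6735 with a rise of at least 0.6 and 1655 with a rise of at least 1. Leaving out 1 library at a time gave 1667 to 2025 for the MUT rise from day 7 to 9, 36 to 54 from day 5 to 7 and 1643 to 1841 from day 9 to 11. It gave 979 to 1692, 941 to 1739 and 635 to 1629 within p0-p1, p2 and pMN, and 0 to 1 for their difference. The populations gave 206 to 400 (MUT day 9), 355 to 503 (MUT day 11) and 310 to 468 (WT day 9 NFIAn). MUT below WT gave 252 to 374 on day 9 and 822 to 875 on day 11. pMN over p2 in NFIAp gave 3 to 299, the p2 fractions 31 to 685, the pMN fractions 0 to 57 and the members 2998 to 3678. How far depth limits low intervals was not tested. The medians and correlations without WT D9 p2 NFIAp replicate 2 were added after seeing the data.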
